A study of Mus musculus with 6 samples.

Results

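The smooth muscle, pericyte and myofibroblast genes described here are Acta2, Tagln, Myh11, Cnn1, Smtn, Myocd, Pdgfrb, Cspg4, Rgs5 and Notch3. They were taken by name from the deposited expression table, in which all 10 are present among 30914 genes. RNA was sequenced in 6 libraries, each labelled as a numbered heart, from wild-type male C57BL/6J mice that were 8 weeks old at the start. An implanted osmotic pump gave the mice of both groups angiotensin II (Ang II) for 4 weeks at a rate of 1 μg/kg/min, a model of hypertensive cardiac hypertrophy. Mice of the Ang II + Tec group (3 libraries) also received tectochrysin (Tec), a plant flavonoid, at 5 mg/kg over the last 2 weeks, and the other 3 libraries form the Ang II group. The comparison asks which transcripts differ when Tec is added to Ang II, and libraries of mice without Ang II were not analysed here. Values are FPKM, fragments scaled to transcript length and to the mapped fragments of the library, so levels of different genes can be compared per length.

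Vascular smooth muscle cells surround arteries and contract through an actin and myosin apparatus. Acta2 (smooth muscle α-actin), Tagln (transgelin, or SM22α), Myh11 (smooth muscle myosin heavy chain), Cnn1 (calponin) and Smtn (smoothelin) belong to this apparatus or bind it. Myocd encodes myocardin, a coactivator of serum response factor (SRF) that is active in smooth muscle and in cardiomyocytes. Pericytes sit on capillaries and are known by Pdgfrb (the receptor for PDGF-B), Cspg4 (the proteoglycan NG2), Rgs5 (a regulator of G-protein signalling) and Notch3 (a Notch receptor of mural cells). Fibroblasts that become myofibroblasts in an injured heart switch on Acta2 and Tagln together with collagens and Postn (periostin), so Acta2 alone does not tell arteries from scar.

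The heart also expresses actins close to Acta2 at higher levels. The mean over all libraries was 3626 FPKM for Actc1 and 252 FPKM for Acta1, beside 78.7 FPKM for Acta2. The start of the coding sequence is therefore shown for the 3 muscle α-actins. The sequences are from GENCODE M21 on GRCm38, each lies in exon 2 on the minus strand, and capitals mark bases that differ from Acta2. They are at chr19:34252494-34252553 for Acta2, chr2:114051972-114052031 for Actc1 (cardiac α-actin) and chr8:123893638-123893697 for Acta1 (skeletal α-actin).
Acta2: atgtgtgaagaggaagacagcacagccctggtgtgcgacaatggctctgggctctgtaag
Actc1: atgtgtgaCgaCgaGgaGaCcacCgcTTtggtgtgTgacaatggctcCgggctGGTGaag
Acta1: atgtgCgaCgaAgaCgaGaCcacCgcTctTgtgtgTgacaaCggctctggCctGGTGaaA
Of these 60 bases, 14 differ in Actc1 and 17 in Acta1, and over the whole coding sequence of 1131 bases the identity to Acta2 was 82.6% and 85.4%. No stretch of 50 bases in the Acta2 transcript occurred in a transcript of Actc1 or Acta1. Of its 2146 such stretches, 7 were shared, each with Actg1 (cytoplasmic γ-actin) and 5 other genes. Among the other members, Myh11 shared 26 of 6655 stretches with Myh9 or Myh10, Notch3 shared 7 of 8050 with Gm30232, Myocd shared 1 of 5161 with Foxp1 and Gm49348, and the other 6 members shared none.

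The libraries differed in their levels of atrial transcripts before any comparison of the groups. The 5 markers of atrial cardiomyocytes (Myl7, Myl4, Sln, Bmp10 and Dkk3) summed to 690.4, 867 and 2.30 FPKM in Ang II replicates 1, 2 and 3, and with Tec added to 2.10, 1633 and 9.09 FPKM. Atrial transcripts were therefore abundant in Ang II replicates 1 and 2 and in Ang II + Tec replicate 2, and Myl7 was listed at 0 in Ang II replicate 3 and Ang II + Tec replicate 1. The sums of 8 ventricular markers lay between 9873 and 12079 FPKM in the Ang II group and between 10696 and 11860 FPKM in the Ang II + Tec group. Sums of FPKM over all genes were 516699 to 592733 and 581800 to 629989, and transcripts of the mitochondrial genome took 40.1% to 48.9% and 49.6% to 52.5% of them. No total of reads can be derived from these values, and errors rest on the variation among libraries.

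All 10 members passed the filter of at least 0.5 FPKM in at least 3 libraries, as did 13089 genes in all. None of the 10 was called, a call being an adjusted p under 0.05 (limma, Benjamini-Hochberg) with a log2 fold change of 1 or more in either direction. Of all tested genes 0.16% were called (21 genes), 0.084% higher and 0.0764% lower with Tec. None had an unadjusted p under 0.05 (18.6% of all tested genes, 2.09% higher and 16.5% lower), and in none were the groups without overlap (21.8% of all tested genes, 2.9% higher and 18.9% lower). The group mean of log2(FPKM + 1) was lower with Tec for 9 of the 10, against 80.0% of all tested genes, whose median log2 fold change was -0.17. After the libraries were rescaled by the median of ratios that median was 0.01, and the mean was then higher with Tec for 6 of the 10 members. In bulk tissue, fewer cells of a type and less RNA per cell cannot be told apart.

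**Figure D1:**
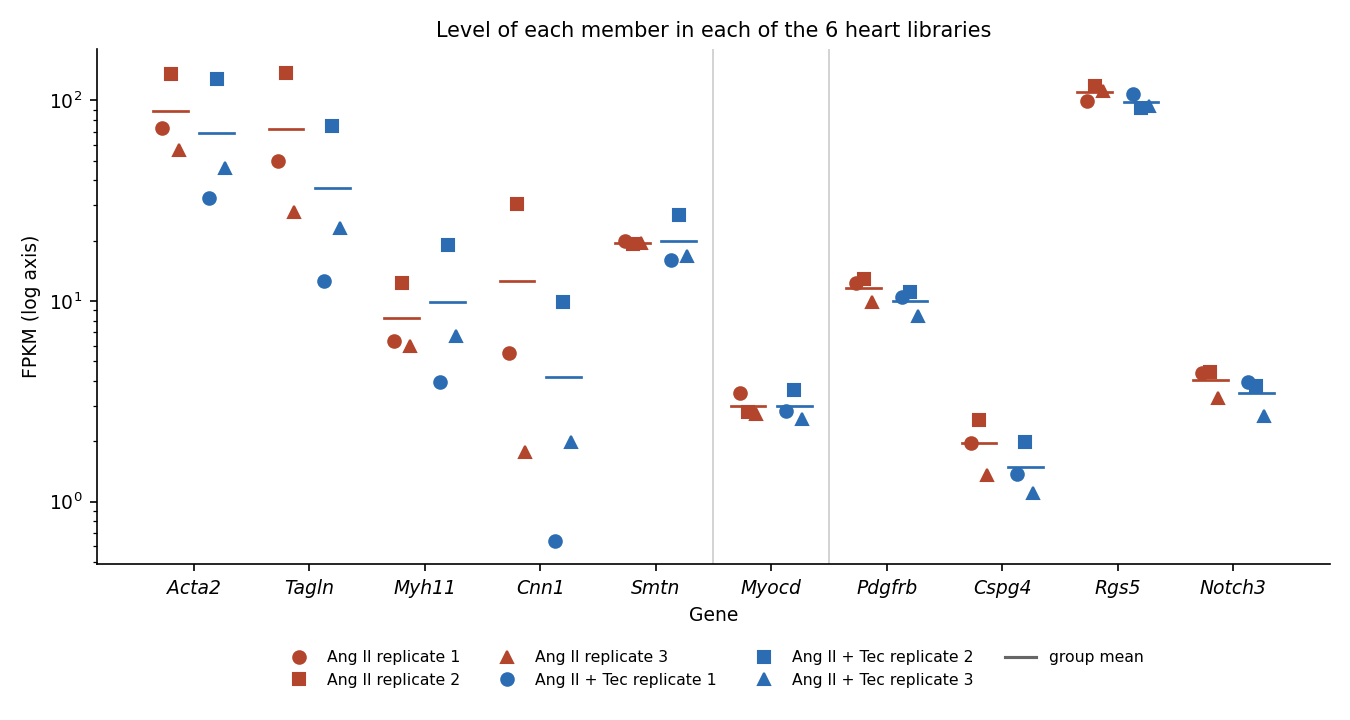
FPKM (log axis) of each of the 10 genes in each library, with red symbols for the Ang II group, blue symbols for the Ang II + Tec group, the symbol shape for the replicate number and a bar at each group mean (n = 3 per group). Vertical lines part the contractile genes, Myocd and the mural genes. Acta2, Tagln, Myh11 and Cnn1 are highest in replicate 2 of both groups, whereas Rgs5 stays between 91.4 and 119 FPKM.

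Among the contractile genes, Acta2 (ENSMUSG00000035783, chr19:34241090-34255590, minus strand, GRCm38) was the most abundant by the mean over all libraries. It was at 72.8, 136 and 56.5 FPKM in Ang II replicates 1, 2 and 3. With Tec added it was at 32.8, 128 and 46.2 FPKM, in the same order of replicates. Replicate 2 stood highest in both groups, and the ranges of the groups overlapped. The means were 88.4 ± 42.0 and 69.0 ± 51.5 FPKM (SD, n = 3 each). The log2 fold change was -0.50 with a standard error of 0.52 and a 95% interval of -1.72 to 0.72 (limma, adjusted p = 0.571; exact permutation test, two-sided, p = 0.5, where 3 against 3 cannot go below 0.1). Leaving out Ang II + Tec replicate 2 moved it to -1.06 and leaving out replicate 1 of that group to -0.10.

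Tagln (ENSMUSG00000032085, chr9:45929619-45936058, minus strand), which encodes an actin-binding protein of smooth muscle, followed the same order of libraries as Acta2. Its levels were 49.7, 138 and 27.9 FPKM with Ang II and 12.6, 74.6 and 23.1 FPKM with Ang II + Tec, a 10.9-fold span over the 6 libraries. The highest library of the Ang II + Tec group lay above 2 of the 3 libraries of the Ang II group. The mean was 71.7 ± 58.0 FPKM with Ang II and 36.7 ± 33.2 FPKM with Ang II + Tec, and the log2 fold change was -1.01 ± 0.74 (SE; interval -2.74 to 0.71; limma, adjusted p = 0.433). It ranged from -1.70 without Ang II + Tec replicate 2 to -0.40 without Ang II replicate 2.

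Cnn1 (ENSMUSG00000001349, chr9:22099216-22109630, plus strand), a marker of contractile smooth muscle, had the widest spread of the 10 genes. It was at 5.54, 30.5 and 1.76 FPKM with Ang II and at 0.64, 9.91 and 1.99 FPKM with Ang II + Tec. The lowest and highest libraries differed 17.3-fold within the Ang II group, 15.5-fold within the Ang II + Tec group and 47.6-fold over all 6. The log2 fold change of -1.14 ± 0.97 (SE) had an interval of -3.42 to 1.15 (limma, adjusted p = 0.497). Without Ang II replicate 2 it was -0.17 and without Ang II replicate 3 it was -1.93. When limma weighted the libraries by their estimated quality, Cnn1 was called at -2.63 (adjusted p = 0.0491), the only member called in any alternative fit. Those weights ran from 0.118 for Ang II replicate 1 to 9.96 for Ang II + Tec replicate 3, and their estimate did not converge.

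Myh11 (ENSMUSG00000018830, chr16:14194535-14291372, minus strand) is a late marker of differentiated smooth muscle. It was the only member with a positive log2 fold change on the deposited scale, by less than its standard error. Its levels were 6.33, 12.4 and 5.99 FPKM with Ang II and 3.95, 19.0 and 6.70 FPKM with Ang II + Tec. Here Ang II + Tec replicate 2 was the highest of the 6 libraries, while Ang II + Tec replicate 1 was the lowest. The log2 fold change was 0.05 ± 0.50 (SE; interval -1.13 to 1.23; limma, adjusted p = 0.956), and it ran from -0.51 to 0.49 when replicates 2 and 1 of the Ang II + Tec group were left out in turn.

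Smtn (ENSMUSG00000020439, chr11:3517523-3540612, minus strand), a cytoskeletal protein of contractile smooth muscle, varied far less. It was at 20.0, 19.2 and 19.4 FPKM with Ang II and at 16.1, 26.9 and 16.8 FPKM with Ang II + Tec. The Ang II libraries differed by 1.04-fold, and Ang II + Tec replicate 2 was again the highest of its group. The log2 fold change was -0.01 ± 0.19 (SE; interval -0.46 to 0.45; limma, adjusted p = 0.978), and it was 0.22 after rescaling by the median of ratios.

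Myocd (ENSMUSG00000020542, chr11:65176561-65269989, minus strand) did not share the wide span of Acta2, Tagln, Myh11 and Cnn1. It was at 3.47, 2.80 and 2.73 FPKM with Ang II and at 2.84, 3.59 and 2.57 FPKM with Ang II + Tec, a 1.40-fold span. Both group means were 3.00 FPKM, with SDs of 0.409 and 0.528. The interval of its log2 fold change reached from -0.34 to 0.33 (limma, adjusted p = 0.989). Because cardiomyocytes also express Myocd, its level in whole heart is not that of smooth muscle alone.

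Of the mural genes, Rgs5 (ENSMUSG00000026678, chr1:169655501-169695813, plus strand) had the highest mean of all members and was steady. It was at 99.0, 119 and 112 FPKM with Ang II and at 108, 91.4 and 94.3 FPKM with Ang II + Tec. Means were 109.7 ± 9.93 and 97.8 ± 8.74 FPKM, and the ranges overlapped. The log2 fold change was -0.16 ± 0.12 (SE; interval -0.45 to 0.13; limma, adjusted p = 0.450), which lay 0.0031 above the median of all tested genes.

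Pdgfrb (ENSMUSG00000024620, chr18:61045150-61085061, plus strand), through which endothelial PDGF-B recruits pericytes, was at 12.3, 12.8 and 9.86 FPKM with Ang II. With Ang II + Tec it was at 10.5, 11.1 and 8.38 FPKM. Replicate 3 was the lowest in both groups, and the log2 fold change was -0.20 ± 0.15 (SE; interval -0.56 to 0.15; limma, adjusted p = 0.444). Leaving out Ang II replicate 3 moved it to -0.31, and leaving out replicate 3 of the Ang II + Tec group to -0.09.

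Notch3 (ENSMUSG00000038146, chr17:32120820-32166852, minus strand), the receptor that maintains arterial mural cells, had the profile closest to that of Pdgfrb. Its levels were 4.39, 4.44 and 3.27 FPKM with Ang II and 3.95, 3.77 and 2.68 FPKM with Ang II + Tec. Replicate 3 was again the lowest of each group, and the log2 fold change was -0.18 ± 0.16 (SE; interval -0.56 to 0.21; limma, adjusted p = 0.531). Leaving out the same libraries moved it to -0.29 and -0.04.

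Cspg4 (ENSMUSG00000032911, chr9:56865033-56899870, plus strand) was the least abundant member by its mean over the libraries. It was at 1.96, 2.55 and 1.36 FPKM with Ang II and at 1.37, 1.99 and 1.10 FPKM with Ang II + Tec. Replicate 2 was the highest and replicate 3 the lowest in both groups. The log2 fold change was -0.25 ± 0.19 (SE; interval -0.70 to 0.21; limma, adjusted p = 0.464), on a scale that understates changes at such low FPKM. When replicates 3 and 2 of the Ang II group were left out in turn, it was -0.40 and -0.10. Rescaling by the median of ratios turned the sign of the log2 fold change for Rgs5 (0.08), Pdgfrb (0.02) and Notch3 (0.02) but not for Cspg4.

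**Figure D2:**
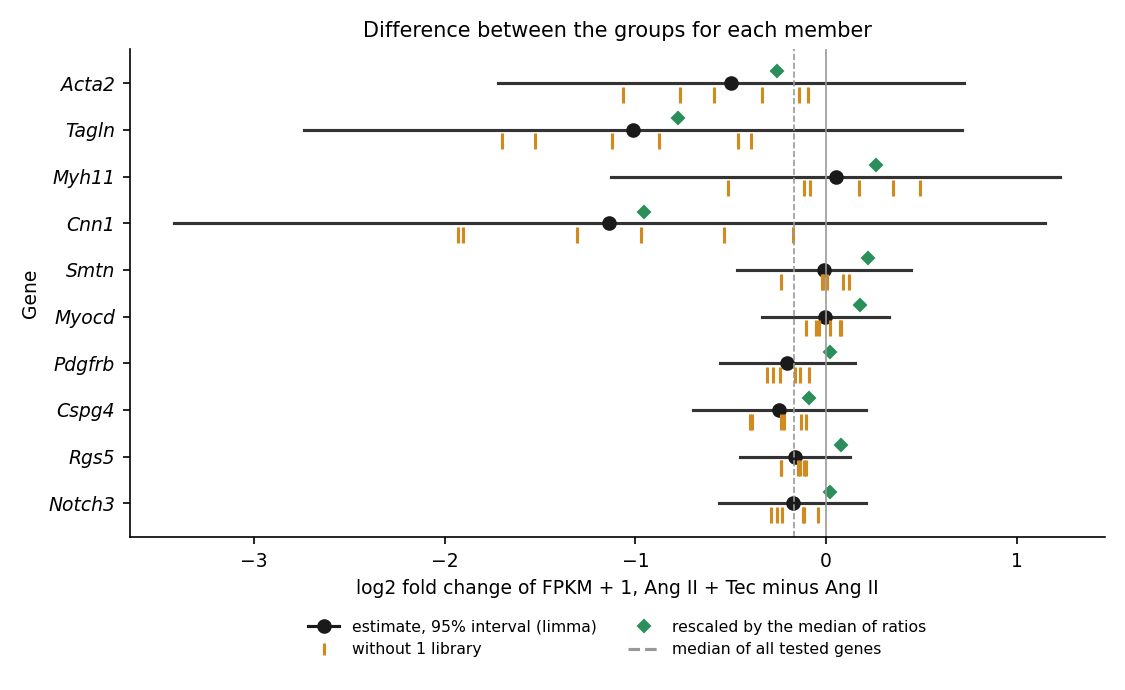
log2 fold change of FPKM + 1 (Ang II + Tec minus Ang II) of each gene, with its 95% interval from limma (n = 3 per group), the estimates without each single library (orange ticks) and with libraries rescaled by the median of ratios (green diamonds). The solid line marks 0 and the dashed line the median of all tested genes, -0.17. All 10 intervals include 0, and those of Tagln and Cnn1 are the widest.

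By their mean over the 6 libraries the members ranked as Rgs5 (103.8 FPKM), Acta2 (78.7), Tagln (54.2), Smtn (19.7), Pdgfrb (10.8), Myh11 (9.05), Cnn1 (8.39), Notch3 (3.75), Myocd (3.00) and Cspg4 (1.72). Neighbours in this order overlapped in their ranges over the libraries, except Smtn with Pdgfrb and, narrowly, Myocd with Cspg4.

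The members split by their spread between libraries of the same group. The SD of log2(FPKM + 1) within groups was 0.85 for Acta2, 1.2 for Tagln, 0.81 for Myh11 and 1.60 for Cnn1, beside a median of 0.17 over all tested genes. That placed these 4 genes at or above the 98.3 percentile of spread among tested genes. Smtn lay at the 79.6 percentile (SD 0.28). The mural genes and Myocd lay between the 27.5 percentile (Rgs5, SD 0.13) and the 79.3 percentile (Cspg4, SD 0.28).

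The mean of log2(FPKM + 1) over the 5 contractile genes was 4.37, 5.45 and 3.86 in Ang II replicates 1, 2 and 3. With Tec added it was 3.19, 5.16 and 3.77. The same mean over the 4 mural genes was 3.59, 3.74 and 3.40 and then 3.46, 3.49 and 3.19. The ratio of Acta2 to Rgs5 FPKM was 0.735, 1.15 and 0.506 with Ang II and 0.304, 1.40 and 0.490 with Ang II + Tec. Acta2 thus exceeded Rgs5 in replicate 2 of each group and in no other library.

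The next values are a description over the 6 libraries, which also differ in their levels of atrial transcripts. Pearson's r between pairs of the contractile genes ran from 0.54 to 0.99 (median 0.83, 10 pairs). Between Acta2, Tagln, Myh11 and Cnn1 it was 0.80 to 0.99. Pairs of mural genes had a median r of 0.61 (0.28 to 0.97, 6 pairs), with the highest value for Pdgfrb and Notch3. Rgs5 had r of 0.02 with Acta2 and 0.14 with Tagln, whereas Cspg4 had r of 0.86 and 0.90 with the same genes. Myocd had r of 0.78 with Smtn and of 0.34 (Cnn1) to 0.50 (Acta2) with the other contractile genes.

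Among 11038 other tested genes with a mean of at least 1 FPKM, Filip1l had the profile most like the contractile mean (r = 0.999). Acvr1b, Lysmd3, Map3k7 and Rarres2 followed, down to r = 0.995. For the mural mean these were Haus8, Gm5527, Timm10, Acyp1 and Cep78 (r = 0.996 to 0.992). After rescaling by the median of ratios only 1 of the 5 genes stayed among the first 5 in either list, so these rankings depend on the scaling.

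SRF binds the CArG box, a short element of many smooth muscle promoters, and myocardin acts through SRF. RefSeq promoter windows on GRCm38.p6, from 250 bases before to 50 bases after the start, were at hand for Acta2, Cnn1, Smtn, Cspg4, Rgs5 and Notch3. None of the 6 windows held the CArG box in its strict form, which 1.63% of 32851 windows held. A like element was counted with at most 1 G or C in the A and T core, so the strict form is included. It was present in the Acta2 window only, at 2 places, each with 1 G or C, against 9.98% of all windows. Both strands are covered, since the element reads alike on each. The stretches are shown because Acta2 is the member with such elements, with the element in capitals, on the minus strand at chr19:34255438-34255467 and chr19:34255388-34255417.
Acta2 upstream element 1: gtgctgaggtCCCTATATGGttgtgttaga
Acta2 upstream element 2: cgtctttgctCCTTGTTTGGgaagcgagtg
Upstream is meant from the RefSeq start, before which the elements begin at 84 and 34 bases. Both lie inside the longer Acta2 gene interval given above. The elements are matches of letters, and no binding was measured here.

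The other contractile smooth muscle genes, 15 listed and all tested, are described by their counts and by the 3 most abundant. None was called, 15 of 15 had a lower mean with Tec on the deposited scale, and the median log2 fold change was -0.36, beside -0.17 for all tested genes. At an unadjusted p under 0.05, 3 of 15 were lower, beside 16.5% of all tested genes. Myl9, the regulatory light chain of smooth muscle myosin, was at 103, 250.2 and 47.6 FPKM with Ang II and at 22.4, 117 and 41.0 FPKM with Ang II + Tec. Its order of libraries was that of Tagln, and its log2 fold change was -1.15 ± 0.72 (SE; limma, adjusted p = 0.383). Tpm2 (β-tropomyosin) was at 12.6, 23.1 and 6.47 FPKM and then at 5.21, 22.4 and 5.99 FPKM, in the same order of libraries (log2 fold change -0.42 ± 0.59, SE; limma, adjusted p = 0.670). Des (desmin), an intermediate filament shared with cardiomyocytes, was at 560.2, 702 and 361 FPKM and then at 381, 309 and 319 FPKM (log2 fold change -0.64 ± 0.24, SE; limma, adjusted p = 0.243). Leaving out Ang II replicate 2 moved Myl9 to -0.55 and Tpm2 to -0.0049, whereas leaving out replicate 2 of the Ang II + Tec group moved them to -1.79 and -1.03. Unlike Myl9 and Tpm2, Des was not high in Ang II + Tec replicate 2.

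With the libraries rescaled by the median of ratios this list's median was -0.17. Rescaling moved the medians of the SRF, pericyte, Notch, PDGF and myofibroblast lists described next to 0.01, 0.01, 0.07, -0.13 and -2.17, so the first 3 turned sign.

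Of 12 SRF and myocardin-related genes, none was called, 9 had a lower mean and 3 a higher mean, and the median log2 fold change was -0.21. Fhl2, a LIM-domain partner of SRF that is abundant in heart muscle, was at 1109, 911 and 912 FPKM with Ang II and at 604, 471 and 575 FPKM with Ang II + Tec. The groups did not overlap (18.9% of all tested genes were lower without overlap), and the log2 fold change was -0.83 ± 0.15 (SE; limma, adjusted p = 0.154), short of a call. Srf itself was at 29.1, 28.8 and 20.7 FPKM and then at 19.2, 26.5 and 19.1 FPKM, with a log2 fold change of -0.27 ± 0.19 (SE; limma, adjusted p = 0.419). Nexn (nexilin), an actin-binding protein of heart muscle, had means of 86.7 ± 3.46 and 88.9 ± 3.17 FPKM (SD, n = 3 each).

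Of 16 further pericyte genes, none was called, 12 had a lower mean and 4 a higher one, with a median of -0.19 that lay near that of all tested genes. Kcnj8 and Abcc9, the subunits of the potassium channel by which cardiac pericytes are often recognised, are also expressed in cardiomyocytes or other mural cells. Abcc9 was at 12.8, 10.1 and 16.7 FPKM with Ang II and at 19.0, 16.1 and 16.2 FPKM with Ang II + Tec (log2 fold change 0.37 ± 0.18, SE; limma, adjusted p = 0.303). Kcnj8 was at 13.5, 14.1 and 14.9 FPKM and then at 19.3, 14.1 and 15.1 FPKM (limma, adjusted p = 0.488). Both means were thus higher with Tec, while that of Mcam, an adhesion molecule of mural and endothelial cells, was lower at 17.6 ± 7.77 against 10.7 ± 3.65 FPKM (limma, adjusted p = 0.324). In 5 of the 16 genes the groups did not overlap and Tec was lower, beside 18.9% of all tested genes. These were Higd1b, Ndufa4l2, Cox4i2, Rgs4 and Steap4, which were named after their values were seen.

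Notch signalling passes from ligands on endothelium to Notch3 on mural cells, and PDGF-B from endothelium acts on Pdgfrb. Of 14 Notch ligands, receptors and targets none was called, 10 had a lower and 4 a higher mean, and the median log2 fold change was -0.07. Among the most abundant, Hes1 had a log2 fold change of -0.08, Heyl of -0.25 and Jag2 of -0.05 (limma, adjusted p = 0.751, 0.604 and 0.817), and each overlapped between the groups. Of the 5 PDGF genes none was called and all had a lower mean on the deposited scale, though Pdgfd was at 0.02 after rescaling. Pdgfb was at 8.23, 7.99 and 8.22 FPKM with Ang II and at 5.24, 6.71 and 6.78 FPKM with Ang II + Tec, without overlap (log2 fold change -0.34 ± 0.12, SE; limma, adjusted p = 0.235). Pdgfd, the other ligand of this receptor, and Pdgfra, the receptor of fibroblasts, had log2 fold changes of -0.18 and -0.35 and overlapped (limma, adjusted p = 0.532 and 0.384).

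**Figure D3:**
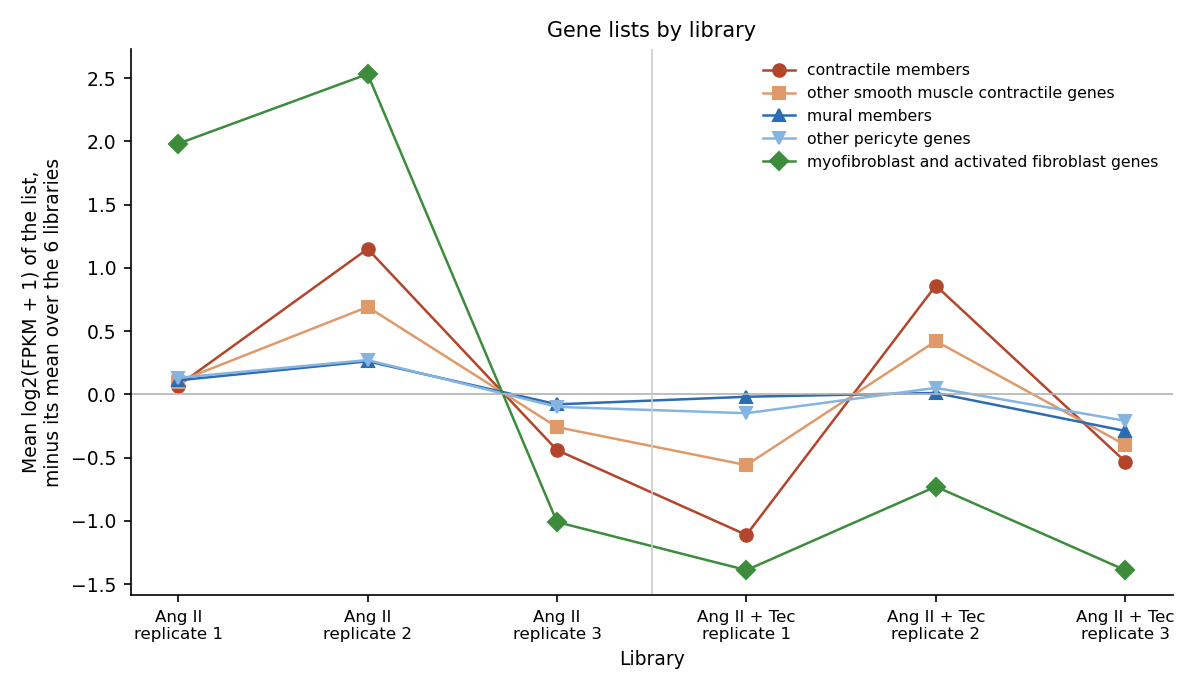
Mean log2(FPKM + 1) of 5 gene lists in each library, each minus its own mean over the 6 libraries, with Ang II replicates on the left and Ang II + Tec replicates on the right. The contractile lists are high in replicate 2 of both groups, the myofibroblast list is high in Ang II replicates 1 and 2, and the mural and pericyte lists vary least.

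The mean profile of the myofibroblast and activated fibroblast genes had r of 0.63 with Acta2 and 0.76 with Tagln over the 6 libraries. It differed most plainly in Ang II + Tec replicate 2. There Acta2 and Tagln lay above Ang II replicate 1, while the mean of this list was 2.27, beside 4.98 and 5.53 in Ang II replicates 1 and 2 (log2(FPKM + 1)). Of 14 listed genes 13 were tested (Tnc passed the filter in too few libraries), and none was called. All 13 had a lower mean with Tec, with a median log2 fold change of -2.35 and a range of -3.48 to -0.52, and 11 had an unadjusted p under 0.05 (16.5% of all tested genes were lower at that p). Postn was at 129.7, 178 and 10.5 FPKM with Ang II and at 6.13, 11.3 and 4.84 FPKM with Ang II + Tec. It was high in Ang II replicates 1 and 2, while Ang II replicate 3 lay within the range of the Ang II + Tec group (log2 fold change -3.02 ± 0.96, SE; limma, adjusted p = 0.224). Col3a1 was at 139.5, 207 and 18.9 FPKM and then at 9.71, 16.7 and 9.63 FPKM, without overlap (-2.72 ± 0.80, SE; limma, adjusted p = 0.220). Col1a1 was at 82.7, 100.4 and 7.09 FPKM and then at 4.2, 8.06 and 3.83 FPKM (-2.75 ± 0.90, SE; limma, adjusted p = 0.228).

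Leaving out Ang II replicate 3 brought 13 genes of these pathway lists past the call, and 557 of all tested genes. That fit kept Ang II replicates 1 and 2, the Ang II libraries with abundant atrial transcripts. Postn was then at -4.26 (limma, adjusted p = 0.000556), Col3a1 at -3.76 and Col1a1 at -3.92. No member was called in that fit, where Tagln was at -1.52 (limma, adjusted p = 0.138) and Acta2 at -0.77 (limma, adjusted p = 0.298). Of all tested genes, leaving out Ang II replicate 1 instead gave 3 calls higher and 0 lower with Tec. Without Ang II replicate 2 these were 5 and 2. The ratio of Tagln to Postn FPKM was 0.383, 0.772 and 2.65 with Ang II and 2.05, 6.62 and 4.76 with Ang II + Tec. It was highest in Ang II + Tec replicate 2, where Tagln was at 74.6 FPKM and Postn at 11.3 FPKM.

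Atrial markers, adipocyte markers and the listed large artery and valve genes also differed between the libraries. The libraries with abundant atrial transcripts were Ang II replicates 1 and 2 and Ang II + Tec replicate 2. In these, Acta2 lay between 72.8 and 136 FPKM, and in the other 3 between 32.8 and 56.5 FPKM. Tagln, Cnn1, Pdgfrb and Cspg4 also had no overlap between these sets of libraries, which makes 5 of the 10 members. The other members overlapped, the contractile genes Myh11 and Smtn among them. Of all tested genes, 42.4% were higher without overlap in the libraries with atrial transcripts, a share near that of the members. The 6 adipocyte markers summed to 13.0, 37.3 and 1.15 FPKM with Ang II and to 0.32, 119 and 3.47 FPKM with Ang II + Tec, and Ucp1, the brown fat uncoupling protein, was at 18.3 FPKM in Ang II + Tec replicate 2. The 6 large artery and valve genes summed to 163, 304 and 30.0 FPKM and then to 23.7, 81.8 and 41.4 FPKM, with elastin (Eln) at 77.8 FPKM in Ang II replicate 2. Comp of this list is also in the myofibroblast list, so the sum is not a measure of arterial tissue alone. Over the 6 libraries its profile had r of 0.94 with the myofibroblast list and 0.85 with the contractile mean. Atrial, adipose and arterial tissue in these hearts was not measured otherwise, and its part in the levels of the members was not tested.

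**Figure D4:**
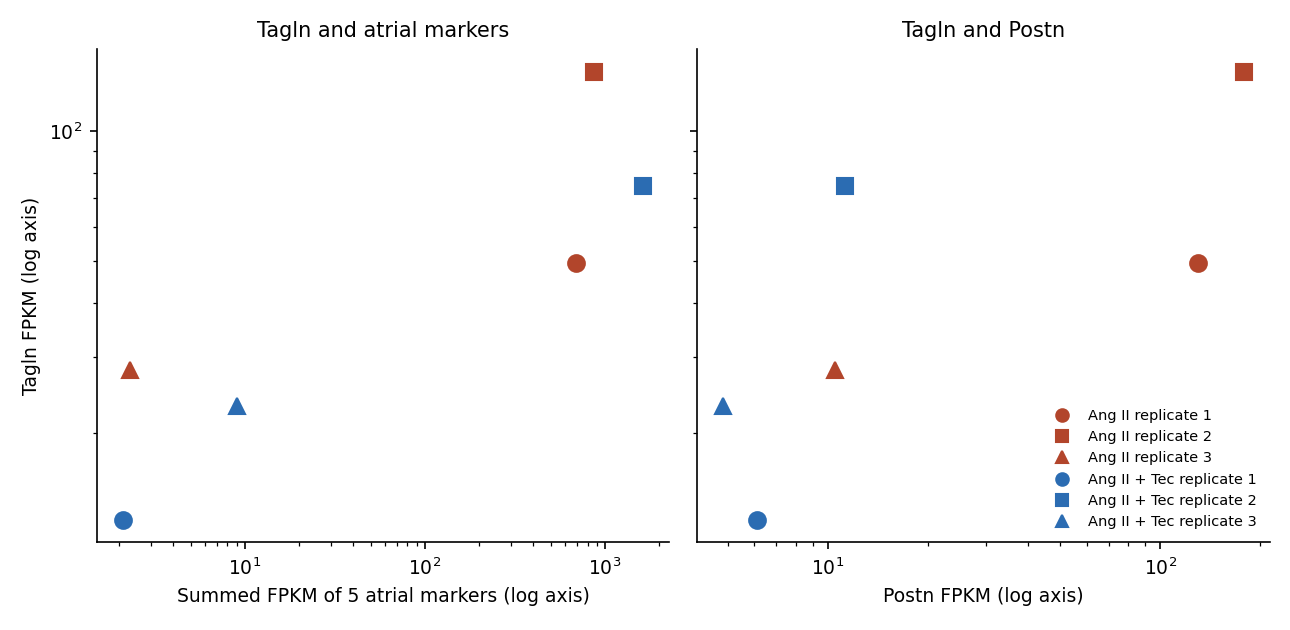
Tagln FPKM (log axis, vertical) in each library against the summed FPKM of 5 atrial markers (left, log axis) and against Postn FPKM (right, log axis), with symbols as in the plot of the members by library. Ang II + Tec replicate 2 joins Ang II replicates 1 and 2 at high atrial markers, but lies among the other libraries in Postn.

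The comparison was also made within these sets of libraries and with the atrial markers as a covariate, choices that followed sight of the data. Among the 3 libraries with atrial transcripts (2 Ang II, 1 Ang II + Tec), the log2 fold change was 0.36 for Acta2, -0.15 for Tagln, 1.01 for Myh11 and -0.40 for Cnn1. Among the 3 without (1 Ang II, 2 Ang II + Tec), it was -0.53 for Acta2, -0.68 for Tagln, -0.18 for Myh11 and -0.32 for Cnn1. No member was called in either set, in which the lone library is assumed to vary like the others. With the covariate, Acta2 was at -0.22 and Tagln at -0.61 (limma, adjusted p = 0.632 and 0.328). Acta2, Myh11, Smtn and Myocd differed in sign between the sets, and that difference was not tested.

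Other cell types gave these values beside the members. The 7 endothelial markers summed to 82.6 to 91.4 FPKM in the Ang II group and 75.1 to 83.2 FPKM in the Ang II + Tec group. The 7 fibroblast markers summed to 379 to 776 and 447 to 823 FPKM, a sum in which Gsn had the largest share and a higher mean with Tec. Of the 7, 5 had a lower mean with Tec and the median log2 fold change was -0.55, and none was called. The 7 macrophage markers summed to 126 to 219 FPKM with Ang II and to 72.3 to 87.5 FPKM with Ang II + Tec, without overlap, though none of the 7 genes was called. All 7 had a lower mean with Tec, 6 at an unadjusted p under 0.05 (limma), beside 16.5% of all tested genes. In 5 of the 7 Tec was lower without overlap, beside 18.9% of all tested genes. Of 7 skeletal muscle markers, 6 were in the table and 2, Atp2a1 and Mylpf, were called higher with Tec, beside 0.084% of all tested genes. Tnnt3 of the same list had a lower mean (log2 fold change -1.77; limma, adjusted p = 0.378). The 6 genes summed to 310.0 to 561 and 461 to 712 FPKM, most of it Ckm, a creatine kinase that heart muscle also expresses. The part of these cell types in the members' values was not tested.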

How the data were processed

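Poly(A) RNA of 6 mouse hearts was sequenced with paired ends. Reads were cleaned by the authors with Cutadapt and inspected with FastQC, and FPKM per gene and library were deposited. The submitters' processing notes name Bowtie 0.12.2, HISAT2 2.0, StringTie 1.3.0 and the build mm8, without their roles. The gene coordinates matched GENCODE M21 on GRCm38 for 90.6% of 30832 shared genes and for all 10 members, and are given on that build. The depth of the libraries is not known from FPKM, and 20998 to 22385 genes were above 0 in a library.

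Values were taken as log2(FPKM + 1). The 13089 genes with at least 0.5 FPKM in at least 3 libraries were fitted with limma 3.58.1 in R 4.3.3 (eBayes with a variance trend), with Benjamini-Hochberg adjustment over these genes. A call needed an adjusted p under 0.05 with a log2 fold change of 1 or more in either direction. Errors are SD of FPKM over 3 libraries or SE of the log2 fold change, and intervals are at 95%. Single genes were also compared with an exact permutation test. The labels number the hearts but do not say whether any library pools animals, so p-values measure the spread between these samples.

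The members and the gene lists were chosen with earlier results of these data known. Named were all members, the 3 most abundant tested genes of each pathway list and any called gene in them, the 5 genes of most like profile and near relatives by sequence. The fit was tested on simulated data with independent noise for each gene. Shifts shared by many genes of a library were not simulated. The alternatives changed the pseudocount, filter, scaling, variance trend, library weights and replicate block, and left out each library. Another 3 were added after seeing the data (the atrial covariate and the sets with and without atrial transcripts, parted at 100 FPKM of Myl7).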

Additional observations from a re-analysis of the deposited data

How the results depend on the processing

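No member was called in any of 18 of the 19 alternative fits, the exception being the library weights. The number of genes called (21) was 3 with no filter on low FPKM, 522 with library weights (1 member and 15 pathway genes), 47 in the libraries with atrial transcripts (5 pathway genes) and 0 in those without (1112 at an unadjusted p under 0.05, limma). Leaving out 1 library gave 2 to 557 calls and 0 to 13 pathway genes. The replicate numbers were checked for pairing, and the deviations of same-numbered libraries correlated at -0.04, 0.43 and 0.38. These values do not settle whether the numbers pair the samples. With the replicate block 22 genes and 0 members were called, with a lowest adjusted p among members of 0.132 (limma). At an unadjusted p under 0.05 (limma), that fit held 2 members, Tagln and Cnn1, beside 3308 of 13089 tested genes. Ang II replicate 1 correlated best with replicate 2 of the other group.

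No result whose sign turned had been called. Rescaling by the median of ratios gave Smtn 0.22, Myocd 0.18, Pdgfrb 0.0226, Rgs5 0.0803, Notch3 0.0195, Hes1 0.13, Jag2 0.15 and Pdgfd 0.0221. Quantile normalization gave Smtn 0.24, Myocd 0.19, Pdgfrb 0.015, Rgs5 0.0629, Notch3 0.0249, Hes1 0.14, Jag2 0.16 and Pdgfd 0.03. Equal nuclear sums gave Smtn 0.0217 and Myocd 0.0215. Library weights gave Myh11 -0.60 and Jag2 0.0542, and the atrial covariate gave Smtn 0.0671 and Myocd 0.0433. The libraries with atrial transcripts gave Acta2 0.36, Smtn 0.44, Myocd 0.16, Tpm2 0.37, Jag2 0.0003 and Pdgfd 0.0141. Those without gave Myh11 -0.18, Hes1 0.23, Heyl 0.17 and Pdgfra 0.0314. Without 1 library, Myh11 ranged from -0.51 to 0.49, Smtn from -0.24 to 0.12, Myocd from -0.11 to 0.0793 and Jag2 from -0.123 to 0.029. The cause was not tested. The limits are 3 libraries a group, unknown depth and unequal levels of atrial markers, adipocyte markers and the listed large artery and valve genes.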

Other observations

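The relatives of the contractile genes in other cells had profiles of their own. Acta1, the skeletal α-actin that adult ventricles re-express under load, was at 196, 265 and 137 FPKM with Ang II and at 627, 195 and 89.2 FPKM with Ang II + Tec. Ang II + Tec replicate 1, the library with the lowest Acta2, was thus the one with the highest Acta1. Actc1 was at 4734, 3932 and 3498 FPKM and then at 3532, 3297 and 2763 FPKM, or 25.8 to 108 times the level of Acta2 in the same library. Actg2, the actin of visceral smooth muscle, was at 1.66, 3.65 and 0.99 FPKM and then at 0.26, 4.2 and 0.43 FPKM, high in replicate 2 of both groups like Acta2.

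The transgelin and calponin relatives that are not restricted to muscle followed another order than Tagln and Cnn1. Tagln2 was at 41.0, 52.1 and 23.2 FPKM with Ang II and at 19.7, 24.2 and 20.7 FPKM with Ang II + Tec. Cnn2 was at 23.7, 33.7 and 11.7 FPKM and then at 11.2, 14.8 and 11.5 FPKM, and Cnn3 was at 27.1, 34.2 and 14.0 FPKM and then at 14.9, 20.4 and 14.4 FPKM. All 3 were highest in Ang II replicates 1 and 2. Tagln3 stayed between 0.12 and 0.45 FPKM and was not tested.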
